A study of Homo sapiens with 5 samples.

Results

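The windows described here are 1000-base windows on the autosomes that the deposited table labels interCGI (outside CpG islands, shores and shelves) and Intergenic (by the section of the gene with the nearest start). They number 106347 of the 288391 windows of the table, or 36.9%. Reduced representation bisulfite sequencing (RRBS), which reads cytosine methylation in restriction fragments rich in CpG sites, was performed on 201B7 (HPS0063), 1 line of human induced pluripotent stem cells (iPSCs) of WT genotype. The cells were exposed for 48 h to 0.1% DMSO alone (vehicle control), to 5-aza-dc at 10 nM, to theophylline at 1 µM, to propyl gallate at 1 µM or to etoposide at 1 nM, with 1 library for each condition. Etoposide inhibits topoisomerase II, propyl gallate is an antioxidant, theophylline inhibits phosphodiesterases and blocks adenosine receptors, and 5-aza-dc is a cytidine analog that traps DNA methyltransferases on DNA. No sample was repeated, so no spread between replicates exists, and the 95% intervals given below cover the counting of CpG calls only.

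In mammalian cells most CpG sites away from CpG islands are methylated, and DNMT1 copies this methylation to the new strand after each replication. Low methylation outside islands is known mainly at promoters, enhancers and other sites bound by regulatory proteins. In pluripotent cells the promoters of genes in use, such as LIN28A and SALL4, are unmethylated.

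The windows held 57093875 CpG calls in the vehicle control library and 45842444 to 51174893 in the other 4, with a median of 318 to 412 calls in each window. The windows that the table labels as promoters of LIN28A, an RNA-binding protein, had a mean methylation level (β-value, methylated calls over all calls) of 1.52% and 6.12% over the 5 libraries. The promoter window of SALL4, a pluripotency transcription factor, was at 0.875%. The promoter window of ZFP42, another pluripotency marker, ranged from 37.2% to 60.9%. Promoter windows of NANOG, SOX2, DPPA4 and TDGF1 were not analysed here, and the windows labelled as the POU5F1 promoter, at 85.7% and 94.3%, lay at least 9319 bases beyond the RefSeq span of that gene and so check nothing.

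The label Intergenic did not hold for most of these windows. When the windows were laid over gene spans, 52856 (49.7%) overlapped a gene that the same table lists for other windows, and 56209 (52.9%) overlapped a RefSeq gene (GRCh38.p14). RefSeq protein-coding genes alone covered 44638 windows (42.0%) and RefSeq lncRNA genes covered 12664 (11.9%). In all, 61423 windows (57.8%) lay over a gene span of either source and 44924 (42.2%) lay outside both. The section in the table is given against 1 assigned gene only, whose start lay a median of 23800 bases from the window, so a window inside a long gene but nearer to the start of another gene carries the label Intergenic. CAMTA1, a transcription activator, held 176 of these windows within its span on chromosome 1, from 6785454 to 7769706. The splicing regulators RBFOX1 and RBFOX3 held 150 and 137, the cadherin gene CDH4 held 113, and CNTNAP2, which encodes a neuronal cell adhesion protein, held 107. Within CAMTA1 the windows had a mean β of 87.3% in the vehicle control, 88.6% with theophylline and 85.6% with 5-aza-dc, and within RBFOX1 the same libraries had 89.4%, 90.8% and 87.8%. GSE1, with 106 windows, was the lowest of the 10 genes with the most windows, at 78.2%, 78.5% and 75.9%. The label interCGI leaves out windows in listed islands, shores and shelves, so some distance from listed CpG islands followed from the rule. The nearest listed island lay at least 4001 bases away and a median of 39500 bases away.

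A small set of windows labelled Intergenic held a transcription start. RefSeq starts matched in place to 522 windows, or 0.515% of the windows on the chromosomes searched, with 568 starts in all. The 5 starts shown were picked after the β-values were seen, to set sequences around unmethylated starts beside that around a methylated one. Each run holds 250 bases before the start and 50 bases from it on, from RefSeq GRCh38.p14, written 5′ to 3′ on the strand of the gene, with CG in capitals. The β-values belong to the whole window that holds the start, and the CpG sites sequenced there need not be those printed.
PSTK: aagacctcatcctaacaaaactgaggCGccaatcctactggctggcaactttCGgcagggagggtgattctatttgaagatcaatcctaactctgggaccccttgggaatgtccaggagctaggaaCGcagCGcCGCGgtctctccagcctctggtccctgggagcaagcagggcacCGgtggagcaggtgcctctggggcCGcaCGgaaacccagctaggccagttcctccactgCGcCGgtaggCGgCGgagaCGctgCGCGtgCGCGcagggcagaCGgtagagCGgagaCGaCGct
PEX3: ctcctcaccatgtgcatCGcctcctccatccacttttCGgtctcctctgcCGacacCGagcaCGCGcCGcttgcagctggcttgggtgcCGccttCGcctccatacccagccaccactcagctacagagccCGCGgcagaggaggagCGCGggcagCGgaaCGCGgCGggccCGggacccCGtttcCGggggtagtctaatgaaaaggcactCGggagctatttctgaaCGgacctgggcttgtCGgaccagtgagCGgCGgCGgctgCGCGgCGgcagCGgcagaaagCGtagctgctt
ZNF43: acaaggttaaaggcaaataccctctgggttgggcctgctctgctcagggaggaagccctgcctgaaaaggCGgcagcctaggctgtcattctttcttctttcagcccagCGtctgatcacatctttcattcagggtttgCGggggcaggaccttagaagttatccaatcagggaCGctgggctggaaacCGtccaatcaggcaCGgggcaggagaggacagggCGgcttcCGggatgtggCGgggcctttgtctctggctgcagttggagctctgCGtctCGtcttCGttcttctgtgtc
RMST: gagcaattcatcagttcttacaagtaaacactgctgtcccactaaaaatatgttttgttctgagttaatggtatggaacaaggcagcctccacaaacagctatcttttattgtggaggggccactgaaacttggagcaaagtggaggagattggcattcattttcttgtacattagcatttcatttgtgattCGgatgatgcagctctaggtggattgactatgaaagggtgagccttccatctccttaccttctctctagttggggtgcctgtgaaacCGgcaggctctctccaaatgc
MBP: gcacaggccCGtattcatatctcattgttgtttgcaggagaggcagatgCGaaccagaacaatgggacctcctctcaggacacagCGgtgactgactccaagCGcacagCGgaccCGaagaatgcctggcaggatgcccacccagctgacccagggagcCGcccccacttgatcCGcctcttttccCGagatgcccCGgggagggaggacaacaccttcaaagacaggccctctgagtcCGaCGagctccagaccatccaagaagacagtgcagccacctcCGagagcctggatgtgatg

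PSTK, which encodes the kinase that makes phosphoseryl-tRNA for selenocysteine, starts on the plus strand of chromosome 10, and its run of 22 CpG sites spans chr10:122980151-122980450. Its window, chr10:122980001-122981000, was at 0.918% in the vehicle control library, 1.15% in that of 5-aza-dc, 0.427% in that of theophylline, 0.136% in that of propyl gallate and 0.430% in that of etoposide, on 987 to 1743 calls. The table assigned this window to IKZF5, whose start is 27812 bases away. PEX3, a peroxisome assembly factor, has 31 CpG sites in chr6:143450555-143450854 on the plus strand, and ADAT2, a subunit of a tRNA adenosine deaminase, starts in the same window on the minus strand. That window, chr6:143450001-143451000, lay between 0.442% and 0.788% in the 5 libraries on at least 4195 calls. ZNF43, a zinc finger gene on the minus strand of chromosome 19 (chr19:21836133-21836432), has 12 CpG sites and lay between 0.484% and 1.23%. All 3 windows were at or below 1.23% in every library.

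RMST, a long noncoding RNA gene known for a role in neurogenesis, has only 2 CpG sites in its run on the plus strand (chr12:97464843-97465142). Its window was nevertheless at 0.635% to 1.97% on 260 to 512 calls. A start with more CpG sites than that of RMST lay in a methylated window. Such windows were common at starts with 12 to 19 sites, where 37 of 79 were at 70% or more. MBP, myelin basic protein (minus strand, chr18:77017006-77017305), has 13 CpG sites at this start and its window lay between 96.0% and 98.9%. The 4 low windows and this one did not overlap in any library, which follows from how they were picked and is no finding.

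Starts on chromosome 8 were not analysed here. Over all 568 starts on the other autosomes, the level went with the number of CpG sites around the start. The 111 starts with under 4 CpG sites had a median window level of 91.4%, the 220 with 4 to 7 sites had 87.3%, and the 118 with 8 to 11 sites had 88.6%. The 79 starts with 12 to 19 sites had a median of 55.4%, with 26 of them under 10% and 37 at 70% or more. The 40 starts with at least 20 sites had a median of 3.09%, with 26 under 10% and 7 at 70% or more. Such CpG-rich starts made up 7.04% of the starts in these windows against 41.4% of the 33725 RefSeq starts on autosomes. Of the 12509 CpG-rich autosomal starts that fell in a covered window of any label, 95.1% carried the label CpG-island and 0.320% were among the windows described here. Protein-coding starts (240) had a median of 77.3% and 56 of them were under 10%, whereas lncRNA starts (328) had a median of 89.8% and 21 of them were under 10%. The 66 windows with a start and a level under 10% were 9.50% of the 695 windows under 10% on these chromosomes.

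Transfer RNA genes, which RNA polymerase III reads from promoters inside the gene, were also found in low windows. RefSeq tRNA genes overlapped 22 windows, of which 10 were under 10% and 9 were at 70% or more, whereas 731 of all 106347 windows (0.687%) were under 10%. The tRNA genes were looked at after low windows had been seen beside them. Of the 10 low windows 8 lay on chromosome 6, where tRNA genes cluster beside the histone genes. That chromosome held 12 of all 22 tRNA windows. The lowest was the window of the serine tRNA gene TRS-TGA2-1, chr6:27545001-27546000, at 0.836% in the vehicle control, 1.51% with 5-aza-dc, 1.36% with theophylline, 0.911% with propyl gallate and 0.646% with etoposide. The methionine tRNA gene TRM-CAT4-2, chr6:26743001-26744000, had a mean of 1.57%, with the lowest value, 0.863%, in the vehicle control. Not every tRNA gene of that chromosome was low, as the windows of TRT-AGT4-1 and TRA-TGC7-1 had means of 87.5% and 91.4%. Windows over RefSeq pseudogenes (477) had a median of 91.5%, and of the 12 over miRNA genes and 15 over snoRNA genes none was under 10%. At the share of 0.687% groups this small can hold none, so their absence sets nothing apart. At 70% or more were 8 of the miRNA windows and 13 of the snoRNA windows, against 95.3% of all the windows described here.

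In most windows methylation was high. By the mean of the 5 libraries, 74731 windows (70.3%) were at 90% or more, 26642 (25.1%) between 70% and 90%, 3461 (3.25%) between 30% and 70%, 782 (0.735%) between 10% and 30% and 731 (0.687%) under 10%. Of all windows of the table, 9.61% were under 10%. Averaged over the windows, β was 88.8% with the vehicle, 89.9% with theophylline, 89.4% with propyl gallate and with etoposide, and 87.8% with 5-aza-dc. The share of windows at 90% or more was 64.5% with the vehicle, 71.7% with theophylline, 69.1% with propyl gallate, 68.3% with etoposide and 57.2% with 5-aza-dc. Single windows spread widely around these means, with a standard deviation between windows of 12.6 to 13.1 percentage points.

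Outside all gene spans the level was higher further from genes. In the vehicle control the 19754 windows under 10 kb from the nearest span had a mean of 87.7%, the 19964 at 10 to 50 kb had 88.5%, the 4940 at 50 to 200 kb had 90.5% and the 266 at 200 kb or more had 91.2%. The counting intervals of the last pair were within 0.0586 and 0.244 percentage points of the means and did not overlap in the vehicle control. They leave out the spread between windows, so they cannot decide whether the 266 furthest windows differ from those at 50 to 200 kb. The share of windows under 30% was 1.95%, 1.47%, 0.789% and 0% in that order. The 61423 windows over a gene span had a mean of 89.0%, with 1.29% of them under 30%. The same order of distances was found in each library.

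**Figure D1:**
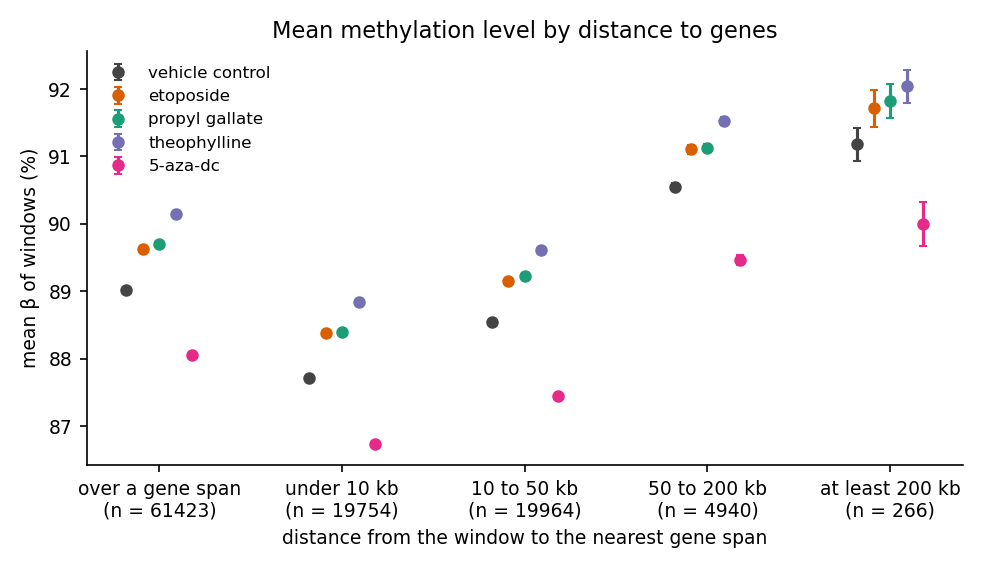
Mean β (y axis, %, not starting at 0) of windows over a gene span and at 4 distances from the nearest span (x axis) in the 5 libraries, with 95% counting intervals. In the vehicle control the mean goes from 87.7% under 10 kb to 91.2% at 200 kb or more, and the 5-aza-dc library is the lowest in each class.

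The 4 chemicals were set against the vehicle control to ask whether the exposure moved methylation of this background. The mean difference in percentage points was -0.989 with 5-aza-dc (interval from counting -1.01 to -0.968), 1.11 with theophylline (1.096 to 1.133), 0.687 with propyl gallate (0.668 to 0.705) and 0.620 with etoposide (0.601 to 0.639). With 1 library for each condition no test of a treatment could be made, and all 4 differences share the vehicle control library. Between chemicals, etoposide and propyl gallate differed by -0.0670 percentage points, and theophylline lay 2.10 above 5-aza-dc. Libraries differed in single windows by more than counting gives. The root mean square difference between any 2 libraries was 5.26 to 6.57 percentage points against 3.07 to 3.53 from counting alone, so the counting intervals of the means are too narrow as a measure of how far 2 libraries of 1 condition would differ.

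Depth did not turn the sign, but the rises were smallest in the deepest windows. Windows were put in 5 bins by the lowest number of calls in any library. From the shallowest bin to the deepest the theophylline difference fell at each step, from 1.35 to 0.802 percentage points. That of propyl gallate also fell at each step, from 1.14 to 0.416. Etoposide lay between 0.422 and 0.693, lowest in the deepest bin. With 5-aza-dc the difference lay between -1.16 and -0.865, and it was -1.16 in the shallowest bin and -1.08 in the deepest.

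The direction was the same on every autosome. Etoposide, propyl gallate and theophylline were above the vehicle control on 22 of 22 autosomes and 5-aza-dc was below it on 22 of 22. Autosomes share a library and are not replicates of a condition. The etoposide difference ranged from 0.450 on chromosome 19 to 0.729 on chromosome 15, that of propyl gallate from 0.461 on chromosome 19 to 0.802 on chromosome 11, and that of theophylline from 0.841 on chromosome 19 to 1.31 on chromosome 10. The 5-aza-dc difference ranged from -1.20 on chromosome 20 to -0.804 on chromosome 10. Chromosome 19, dense in genes, also had the lowest level of all autosomes in each library, 87.1% in the vehicle control, and chromosome 4 had the highest, 89.9%.

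The size of the difference depended on how methylated a window was. Windows were put in classes by their mean β in the 3 libraries that enter neither side of the comparison. After 5-aza-dc the difference was -0.557 percentage points in windows under 10%, -1.76 at 10 to 30%, -1.91 at 30 to 70% (interval -2.10 to -1.73), -1.17 at 70 to 90% and -0.891 at 90% or more (-0.913 to -0.869). Theophylline was above the vehicle control in every class, by 0.223, 0.392, 0.951, 1.33 and 1.05 percentage points from the lowest class to the highest. Etoposide was below it in the 2 lowest classes, by -0.249 and -0.446, at 0.0429 in the middle class, where the interval of -0.131 to 0.217 holds 0, and above it by 0.787 and 0.604 in the 2 highest. Propyl gallate gave -0.192, -0.416, 0.262, 0.842 and 0.669 in the same order. With classes set from all 5 libraries its value at 30 to 70% was 0.0420 (-0.130 to 0.214) and that of etoposide -0.256 (-0.434 to -0.0781). In windows outside all gene spans the etoposide difference was -0.0294 (-0.282 to 0.224) under 10% and 0.348 (0.0877 to 0.608) at 30 to 70%, so neither value held over that split, and the propyl gallate difference was -0.0581 (-0.297 to 0.181) under 10% and -0.349 (-0.767 to 0.0679) at 10 to 30%.

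The differences were also set against those of gene-body windows that are interCGI. The 55431 gene-body windows had a mean of 88.2% in the vehicle control, 0.517 percentage points below the windows described here. The difference of the windows described here minus that of gene-body windows was 0.0111 percentage points with 5-aza-dc (interval -0.0239 to 0.0461), -0.000512 with theophylline (-0.0321 to 0.0311) and 0.00659 with propyl gallate (-0.0249 to 0.0380). With etoposide it was 0.0347 (0.00228 to 0.0671), an interval that excludes 0 by counting alone. In single windows the root mean square difference of etoposide from the vehicle control was 1.73 times that from counting, so this interval is too narrow to set the 2 parts apart. In the 11850 windows labelled Intergenic and CpG-island the mean was 66.1% in the vehicle control, and the differences of the windows described here were higher than theirs by 0.114 with 5-aza-dc, 0.394 with theophylline, 0.319 with propyl gallate and 0.295 with etoposide. The windows were also split by gene spans over all levels. Outside all spans the 5-aza-dc difference was lower by -0.0860 than over a span (-0.128 to -0.0441), and the theophylline difference by -0.0384 (-0.0760 to -0.000848). These intervals too are from counting alone and leave out the spread between windows.

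Neighbouring windows had like levels but hardly like differences. In the vehicle control the correlation of β across 25887 pairs of adjoining windows was 0.451, and it was 0.0917 across 13577 pairs starting 2 kb apart. For the difference after 5-aza-dc it was 0.106 for adjoining windows and 0.00542 at 2 kb. Adjoining windows can share restriction fragments and reads, and these correlations are across windows of the same libraries.

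Single windows were compared with Fisher's exact test (two-sided) on the CpG calls of 2 libraries, adjusted by Benjamini-Hochberg over all 288391 windows, and called where the adjusted p was under 0.01 and β was at least 25 percentage points apart. The test compares 2 libraries, not conditions. After 5-aza-dc 231 windows were lower and 73 higher, or 0.217% and 0.0686% of the windows, against 0.234% and 0.0759% of all windows of the table. Etoposide had 92 higher and 95 lower (all windows 0.101% and 0.0902%), propyl gallate 94 and 78 (0.094% and 0.0839%), and theophylline 102 and 66 (0.106% and 0.0683%). These shares were near those of the whole table. Pairs of chemicals without the control gave counts of the same order, with 200 windows between etoposide and propyl gallate (all windows 0.199%), 199 between etoposide and theophylline (0.199%) and 165 between propyl gallate and theophylline (0.178%). With 5-aza-dc on 1 side there were 408 against etoposide (0.372%), 359 against propyl gallate (0.347%) and 416 against theophylline (0.378%). When β only had to be 10 percentage points apart, etoposide had 1557 windows higher (1.46% against 1.37% of all windows) and 1052 lower (0.989% against 0.959%). Propyl gallate had 1549 higher (1.46% against 1.35%) and 966 lower (0.908% against 0.884%), and theophylline 1838 higher (1.73% against 1.6%) and 721 lower (0.678% against 0.681%). The 5-aza-dc library had 1023 higher (0.962% against 0.891%) and 3040 lower (2.86% against 2.76%). By the adjusted p alone 9993 windows were lower with 5-aza-dc (9.40% against 10.5% of all windows) and 3961 higher (3.72% against 3.58%), with a median size of 7.52 percentage points. With the calls divided by 2, as if 2 calls came from 1 molecule, the counts at 25 percentage points were 15 higher and 23 lower for etoposide, 13 and 13 for propyl gallate, 11 and 11 for theophylline, and 10 and 58 for 5-aza-dc. The share of all windows was not worked out for calls divided by 2, so these counts cannot be read against the whole table. Called windows were shallow, with a median of 38 to 46 calls in the shallower library of the pair.

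The 3 libraries outside each comparison showed which library stood apart in the called windows. In the 231 windows lower after 5-aza-dc the mean β was 50.6% with 5-aza-dc and 87.9% in the vehicle control, and the other 3 libraries averaged 81.2%, nearer to the vehicle control in 207 windows. In the 102 windows higher after theophylline the vehicle control had 57.7%, theophylline 91.1% and the other 3 libraries 81.4%, which was nearer to the vehicle control in only 20 windows. The same was seen after etoposide, where the others were nearer to the vehicle control in 18 of 92 higher windows and 76 of 95 lower ones. With a median of 91.9% over all these windows in the vehicle control, a gap of this size can hardly arise other than by a low library, so this pattern follows largely from how the windows were called.

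The largest differences with at least 100 calls in all 5 libraries often came back in several comparisons, which share the vehicle control. The window chr4:15906001-15907000, 31740 bases from the start of FGFBP1, a carrier of fibroblast growth factors, was at 53.1% in the vehicle control, 66.4% with 5-aza-dc, 90.6% with theophylline, 81.0% with propyl gallate and 91.7% with etoposide. The vehicle control was thus the lowest of the 5 there. In chr15:97904001-97905000, which is outside RefSeq genes, the vehicle control and etoposide libraries were at 89.9% and 98.8% and the other 3 at 53.5%, 38.7% and 46.0%. Etoposide was highest in chr4:25988001-25989000, at 84.6% (186 of 220 calls, Wilson interval 79.2 to 88.7). The vehicle control was lowest there at 36.5%, and the others lay at 46.3% to 58.2%. Propyl gallate and 5-aza-dc were 15.2 and 21.7 percentage points above the vehicle control, so the gap is not of etoposide alone. The adjusted p of the Fisher's exact test between etoposide and the vehicle control was 1.4e-31. In chr10:128265001-128266000 etoposide was lowest at 8.22% and the vehicle control highest at 54.0%, with 31.6% to 38.2% elsewhere. The adjusted p of the exact test between etoposide and the vehicle control there was 3.1e-20. Both libraries lay apart from the rest, so that gap is not of etoposide alone. Theophylline stood alone in chr13:24359001-24360000, at 56.8% against 98.8% in the vehicle control and 85.1% to 91.7% elsewhere.

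Other windows of this kind had a treated library lowest or highest in some and the vehicle control lowest in others. In chr8:114006001-114007000, far from any protein-coding gene, β was 20.8% after 5-aza-dc (Wilson interval 17.3 to 24.7) and 46.9% to 55.1% in the other 4 libraries, with an adjusted p of 1.4e-31 by the exact test against the vehicle control. In chr5:15912001-15913000, inside FBXL7, an F-box protein gene, the vehicle control was lowest at 23.4% and the other 4 ranged from 49.1% to 69.7%. The highest of 5 in chr3:58654001-58655000, inside FAM3D, was 5-aza-dc at 93.8%, with 62.7% in the vehicle control and 80.5% to 86.6% in the others. In chr15:40959001-40960000, 6039 bases from the start of CHAC1, a glutathione-degrading enzyme, propyl gallate was lowest at 52.9%, with 64.6% after etoposide, 66.4% after 5-aza-dc, 80.2% after theophylline and 85.7% in the vehicle control. In chr11:11010001-11011000 the vehicle control was lowest at 45.02%, and the highest, propyl gallate, was at 75%. In chr2:239553001-239554000 etoposide was lowest at 61.1%, below 5-aza-dc at 78.3% and the others at 89.5% to 97.2%.

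The 8 lowest windows with at least 100 calls in all libraries had mean β of 0% to 0.567%. No methylated call was seen in chr8:88386001-88387000 in any library, on 125 to 206 calls, which with a Wilson interval allows up to 2.98% in the shallowest one. Adjoining windows at chr5:142024001-142025000 and chr5:142025001-142026000, the first assigned to GNPDA1, a glucosamine-6-phosphate deaminase, were at 0.275% and 0.551% and lie outside RefSeq genes. The window chr1:16012001-16013000, assigned to HSPB7, a small heat shock protein of the heart, was at 0.402%, and chr5:59127001-59128000, inside the phosphodiesterase gene PDE4D, was at 0.446%. The remaining windows were chr16:18751001-18752000 at 0.500%, chr17:77696001-77697000 at 0.532% and chr9:115474001-115475000 at 0.567%. They were chosen for a low mean over all 5 libraries, so their likeness between libraries is no finding.

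Low methylation also ran over stretches of neighbouring windows. Of 5637 stretches of at least 4 windows with gaps of at most 5 kb, 27 had a mean under 50%, and the median was 90.5%. The lowest, chr6:26743001-26756000, held 4 windows between 0.699% and 2.87%, among them that of TRM-CAT4-2. The next, chr6:27539001-27550000, held that of TRS-TGA2-1 and ran from 1.05% to 90.6% within 11 kb. The stretch chr8:20231001-20238000 held 4 windows at 3.12% to 13.7% beside 2 at 88.4% and 92.8%, and chr16:81726001-81732000 held 4 at 10.3% to 72.7%. Another pair lay inside genes, chr16:57475001-57480000 in DOK4, a docking protein gene, with a mean of 37.3%, and chr1:204359001-204368000 in PLEKHA6 with 38.1%. The DOK4 stretch holds a window with as few as 11 calls.

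At the scale of 1 Mb, 1476 bins held at least 30 of the windows each. The 5-aza-dc difference was below 0 in 1254 bins and the theophylline difference above 0 in 1386, and the middle 90% of bins lay between -2.55 and 0.580 and between -0.129 and 2.43 percentage points. The lowest 5-aza-dc difference, -4.38 percentage points (± 1.38, 95% counting interval), was on chromosome 15 from 24000001 to 25000000, with 35 windows near NPAP1 and SNURF of the imprinted Prader-Willi region, where the 4 other libraries lay between 85.8% and 86.0% and 5-aza-dc at 81.5%. This bin was picked as the extreme of 1476. The next differences were -3.90 on chromosome 10 from 76000001 and -3.87 on chromosome 7 from 56000001, followed by -3.70 on chromosome 14 from 93000001, -3.64 on chromosome 1 from 178000001 and -3.59 on chromosome 17 from 76000001. By level, the bins lowest in the other 4 libraries were chromosome 6 from 26000001 and from 27000001, around the histone genes, at 70.04% and 74.8%, and chromosome 9 from 113000001 at 74.4%.

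Windows were also grouped by the gene that the table assigns. The 37 windows of 13 pluripotency genes had a mean of 89.96% in the vehicle control and none had a mean under 30%. Of all the windows described here 1.42% were under 30%, so 37 windows are too few to set these genes apart. Windows labelled as promoters are left out by the rule. The promoter windows of LIN28A and SALL4 were low, whereas that of ZFP42 had a mean of 51.7%. The 8 windows assigned to ZFP42 had 82.5% and the 3 assigned to DPPA4 had 79.9%. The 57 windows of 15 germ layer transcription factors had a mean of 84.3%, with 2 windows under 30%. These were a window 14942 bases from the start of FOXA1, a factor of endoderm, at 12.9% to 17.6%, and one 153155 bases from PAX7, a factor of neural crest and muscle, at 21.8% to 25.5%. The 85 windows of genes known for variable methylation after reprogramming had 87.4%, of which TCERG1L gave 49 at 86.7%. None of the windows of the first 2 lists was called in a comparison with the vehicle control. Of the third list 2 windows (2.35%) were lower after 5-aza-dc. The shares over all windows of the table were 0.0683% to 0.234%. At such shares lists of 37, 57 and 85 windows are too small for these counts to set them apart.

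The larger families were described in the same way. The 407 windows of 205 olfactory receptor genes and pseudogenes, the odour receptors of nasal neurons, had a mean of 86.5% in the vehicle control and a 5-aza-dc difference of -1.31 percentage points (interval -1.66 to -0.968), with 2.46% of windows under 30%. The 687 windows of 268 genes with a ZNF symbol had 88.8% and -0.716 (-0.969 to -0.463). These are zinc finger genes together with pseudogenes and antisense transcripts named after them, such as ZNF587P1 and ZNF385D-AS1. The 5207 windows of 1379 LINC genes, for long noncoding RNAs, had 88.5% and -1.17 (-1.27 to -1.07). Over all windows the share under 30% was 1.42% and the 5-aza-dc difference -0.989. The counting interval of the ZNF difference lies above that mean and that of the LINC difference below it. The root mean square difference of 5-aza-dc from the vehicle control in single windows was 1.81 times that from counting. These intervals are thus too narrow to set a family apart. After 5-aza-dc 14 LINC windows (0.269%) were called lower and 2 (0.0384%) higher, 3 ZNF windows (0.437%) lower and 1 (0.146%) higher, and 2 olfactory receptor windows (0.491%) lower and 0 higher. Over the whole table the shares were 0.234% lower and 0.0759% higher.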

How the data were processed

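Per the labels and the study's methods, RRBS reads of 5 libraries were trimmed with Trim Galore 0.5.0 and aligned to hg38 with Bismark 0.20.0. The authors called CpG sites with methylKit 1.10.0, summed the calls in windows of 1000 bases, scaled coverage between libraries and kept windows with at least 10 calls, joined over all 5. The authors deposited counts of CpG calls for the vehicle control, scaled and rounded counts (used as a score) for the other 4 libraries, and the fraction of methylated calls (β-value). Here the β-values were used as deposited, and calls before scaling were worked back by dividing by the factor of each library (1.09 to 1.21), with a total of 188844850 to 228919184 calls. Intervals are binomial at 95%, and calls are not independent molecules. Fisher's exact test was written for Python 3.11.15 and tested on simulated data, where it called 200 of 200 changed windows and 0 unchanged ones. The changed windows had at least 100 calls in all libraries and a change larger than the threshold, and all spread was from counting. This does not show how many calls are false among the shallower windows called here.

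The windows, lists and named windows were chosen with earlier results of these data known. Named windows were the 2 largest rises and falls per chemical at an adjusted p under 0.01 and the 8 lowest windows (both with at least 100 calls in all libraries), the 6 lowest stretches, the 6 bins of 1 Mb with the largest fall after 5-aza-dc and the 3 lowest bins. RefSeq starts, tRNA genes and long genes were added after values had been seen. CpG number, repeats and CTCF motifs of whole windows were not analysed here, since no genome sequence of hg38 was used. RefSeq gene positions and promoter sequences were those of GRCh38.p14.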

Additional observations from a re-analysis of the deposited data

How the results depend on the processing

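The mean difference of each chemical from the vehicle control kept its sign under all 32 alternatives, and 14 of them stayed within the counting interval. As the median over windows it was -0.766 percentage points for 5-aza-dc, 1.02 for theophylline, 0.630 for propyl gallate and 0.599 for etoposide. With all calls pooled it was 0.594 after propyl gallate and -1.06 after 5-aza-dc. In windows of 100 calls or more in each library it was 0.601, 0.629 and 1.06 after etoposide, propyl gallate and theophylline, and with at least 30 calls 0.657 after propyl gallate. At 10 kb or more from a gene it was 1.06 after theophylline and -1.09 after 5-aza-dc, and outside every gene span, chosen after seeing the data, 1.09 and -1.04. The mean log2 ratio was -0.0203 for 5-aza-dc, 0.0185 for theophylline, 0.0101 for propyl gallate and 0.0086 for etoposide. With the level class taken from all 5 libraries, the 5-aza-dc difference at 30 to 70% was -2.42, and the etoposide difference in that class turned to -0.256 and that of propyl gallate was 0.0420. The cause was not tested.

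Counts of called windows depended on the threshold and the depth. With a difference of at least 10 percentage points they were 4063 for 5-aza-dc, 2559 for theophylline, 2515 for propyl gallate and 2609 for etoposide. At an adjusted p under 0.05 etoposide had 285. In windows of 30 calls or more in each library the counts were 160, 95, 108 and 109, and with calls divided by 2 68, 22, 26 and 38 in the same order. For these counts and the 285 of etoposide the share of all windows of the table was not worked out. They show only how the calls depend on the setting, not how these windows compare with the rest. No paired analysis was possible because each condition has 1 library. Shallow windows limit the calls, and 1 library for each condition leaves treatment and library unable to be told apart.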
